A study of Mus musculus with 31 samples.

Results

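Hypoxia-inducible genes were examined in the kidneys of mice with slowly progressing polycystic disease, with and without long-term treatment with the anti-miR-17 oligonucleotide RGLS4326. Cells sense oxygen through the hypoxia-inducible factors (HIF), whose alpha subunits are made continuously and destroyed when oxygen is sufficient. Prolyl hydroxylases mark the alpha subunit, the von Hippel-Lindau protein then directs it to the proteasome, and an alpha subunit that escapes pairs with ARNT and binds short motifs beside its target genes. Much of this control acts on the protein, so the level of the alpha subunit mRNA is not a measure of HIF activity. In kidney, HIF-2alpha in interstitial fibroblast-like cells is known for driving erythropoietin, while tubule cells use HIF targets in metabolism, mitophagy and vascular signalling.

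Of the 23509 genes counted, 10 were taken by symbol: the alpha subunits Hif1a and Epas1 (HIF-2alpha), the oxygen sensor Egln3, the secreted factors Vegfa, Adm and Epo, the carbonic anhydrase Car9, the mitochondrial proteins Bnip3 and Pdk1, and the stress-response gene Ndrg1.

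The series holds kidney mRNA libraries labelled as 31 mice in 3 groups, 1 library each. The study's own text gives fewer mice per group for its sequencing of this model and does not name them, so every labelled mouse was used here. The PBS group (n = 12) and the RGLS4326 group (n = 14, 25 mg/kg) were Pcy/CD1 mice, a CD1 line carrying the recessive pcy mutation that makes kidneys cystic, injected subcutaneously from 5 to 30 weeks of age. The wild-type group (n = 5) comprised CD1 mice without the mutation, male, of matching age and not injected, so that the pcy genotype and the injections cannot be told apart in any comparison with wild type. The sample labels give weekly injections for PBS and monthly injections for RGLS4326, whereas the protocol text reads as monthly for both, and dosing frequency cannot be told apart from the drug.

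Library totals on genes ranged from 14892524 to 27459962 counts (median 19961466), and levels are given as CPM, the counts of a gene relative to the whole library (per 1000000), on library sizes scaled by the trimmed mean of M-values. The libraries fall into 3 numbered series in which the numbering restarts, called library series here. Each series holds all 3 groups, but series 3 holds only 1 wild-type mouse. Comparisons with wild type within series 3 therefore rest on that mouse and carry no spread of wild type. Proximal tubule markers were abundant in every group with summed levels of 16077 to 17660 CPM in wild type, 4763 to 9693 CPM in PBS and 6313 to 15196 CPM in RGLS4326. All 8 proximal tubule markers were called lower in PBS than in wild type. All 5 collecting duct markers, all 8 macrophage markers and 6 of 9 fibroblast markers were called higher. The shares of all genes called were 37.7% higher and 36.6% lower. Of 4 thick ascending limb markers 1 was higher and 1 lower. Both tubular injury markers and 2 of 5 podocyte markers were higher, and the 1 erythroid marker tested was lower. With RGLS4326 against PBS, 3 of 8 proximal tubule markers were called higher (7 at an unadjusted p under 0.05, and 6 by DESeq2, with a median log2 fold change of 0.36 over the 8) and all 5 collecting duct markers were lower, while 0 of 8 macrophage markers passed the edgeR test at an adjusted p of 0.05 (1 at an unadjusted p under 0.05, and 0 by DESeq2). Over all genes, 9.15% were called higher and 6.66% lower in RGLS4326 against PBS. In whole kidney, fewer cells of a type and less RNA per cell cannot be told apart. The part of these marker shifts in the results below was not tested. RGLS4326 mouse 9 stood near wild type (15196 CPM of proximal tubule markers and 775 CPM of collecting duct markers, against group medians of 8847 and 1547). Calls of members and pathway genes that end without it are named where they occur. The marker calls above are given only with this mouse included.

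RGLS4326 is complementary to the seed of miR-17 and its family, the bases (2 to 8) with which a microRNA finds its targets. The family members below, from RefSeq on GRCm38.p6, share that seed, shown in capitals, and are printed because they are what the drug binds.
miR-17-5p (chr14:115043684-115043706, plus strand): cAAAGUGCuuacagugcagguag
miR-20a-5p (chr14:115044183-115044205, plus strand): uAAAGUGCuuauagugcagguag
miR-93-5p (chr5:138165574-138165596, minus strand): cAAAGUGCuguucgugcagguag
miR-106b-5p (chr5:138165787-138165807, minus strand): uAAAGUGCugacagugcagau

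The complement of that seed, GCACTTT, was searched on the transcript strand of the longest annotated 3′UTR of each gene on GRCm38, and 11.7% of the 21010 genes with a 3′UTR held it. Of the 10 genes, 4 held 1 match each: Hif1a, Epas1, Vegfa and Egln3. The Egln3 match is followed by A, which makes it an 8mer site, a form found in 3.49% of genes. Each stretch is printed with the match in capitals, since these are the members on which a direct action of the drug could be looked for. A match is a description of the letters and not evidence of binding.
Hif1a (chr12:73946678-73946684, plus strand, 3′UTR in exon 15 of 15): tttggttttatGCACTTTgtcgctattaa
Epas1 (chr17:86832876-86832882, plus strand, 3′UTR in exon 16 of 16): gtgttccaagaGCACTTTgtaactcactg
Vegfa (chr17:46018690-46018696, minus strand, 3′UTR in exon 7 of 7): ctcttcgaggaGCACTTTgggtccggagg
Egln3 (chr12:54180326-54180332, minus strand, 3′UTR in exon 5 of 5): gcttcttattcGCACTTTAtgtatgcgtc

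HIF binds DNA at ACGTG or GCGTG. Either motif, on either strand, was found in 43.8% of the 32851 RefSeq promoters of the same 300 bases (250 before to 50 after the start site). Of the 10 genes, 8 had an entry in the promoter table, with 10 promoters in all, of which 8 held a match. Vegfa and Pdk1 each had 1 promoter with a match and 1 without, and for Vegfa the one without stands at the start of the gene while the other lies inside it. Bnip3 and Car9, 1 of the pairs that varied together between mice as described below, are shown on the strand of the gene, with 1 match in capitals. Bnip3 held 5 matches, some of them in lower case in the stretch shown, and Car9 held 1. Whether the matches bear on the correlation was not tested. CACGT is ACGTG read on the other strand.
Bnip3 (chr7:138909609-138909613, minus strand, position -107 from the start site): cgcacgcgccgcACGTGccacacgctccc
Car9 (chr4:43507008-43507012, plus strand, position -18): ctatttccgatgCACGTacagcccgtcca

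In cystic kidney given PBS, the 9 genes that could be tested moved in both directions. Bnip3, Car9, Vegfa, Epas1 and Adm were lower than in wild type, Egln3, Ndrg1 and Pdk1 were higher, and Hif1a did not pass the test. That is 8 of 9 genes, 3 higher and 5 lower, at an adjusted p under 0.05 (edgeR quasi-likelihood test, Benjamini-Hochberg over 15185 genes). The same test called 74.3% of all genes in this comparison (37.7% higher and 36.6% lower), so a share of this size is close to the background of this kidney. Without scaling beyond library size the median log2 fold change of all genes moved from 0.01 to 0.38 and the members split into 4 higher and 3 lower, so directions here are relative to the bulk of genes. Bnip3, Car9 and Vegfa stayed lower, and past the threshold, without it. The ranges of the mice did not overlap for 2 of the 9, Vegfa and Bnip3, against 42.2% of all genes, and without scaling for 4 of the 9, Egln3, Bnip3, Ndrg1 and Pdk1, against 48.8%. With RGLS4326 against PBS, 1 of 9 passed, Bnip3, which was higher. The background there was 15.8% of all genes, or 9.15% counting only genes that were higher and 6.66% counting only genes that were lower. With an absolute log2 fold change over 0.5 required as well, 0 of 9 passed this comparison by edgeR, where 3 of the 9 had an unadjusted p under 0.05 and 2.15% of all genes passed.

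**Figure D1:**
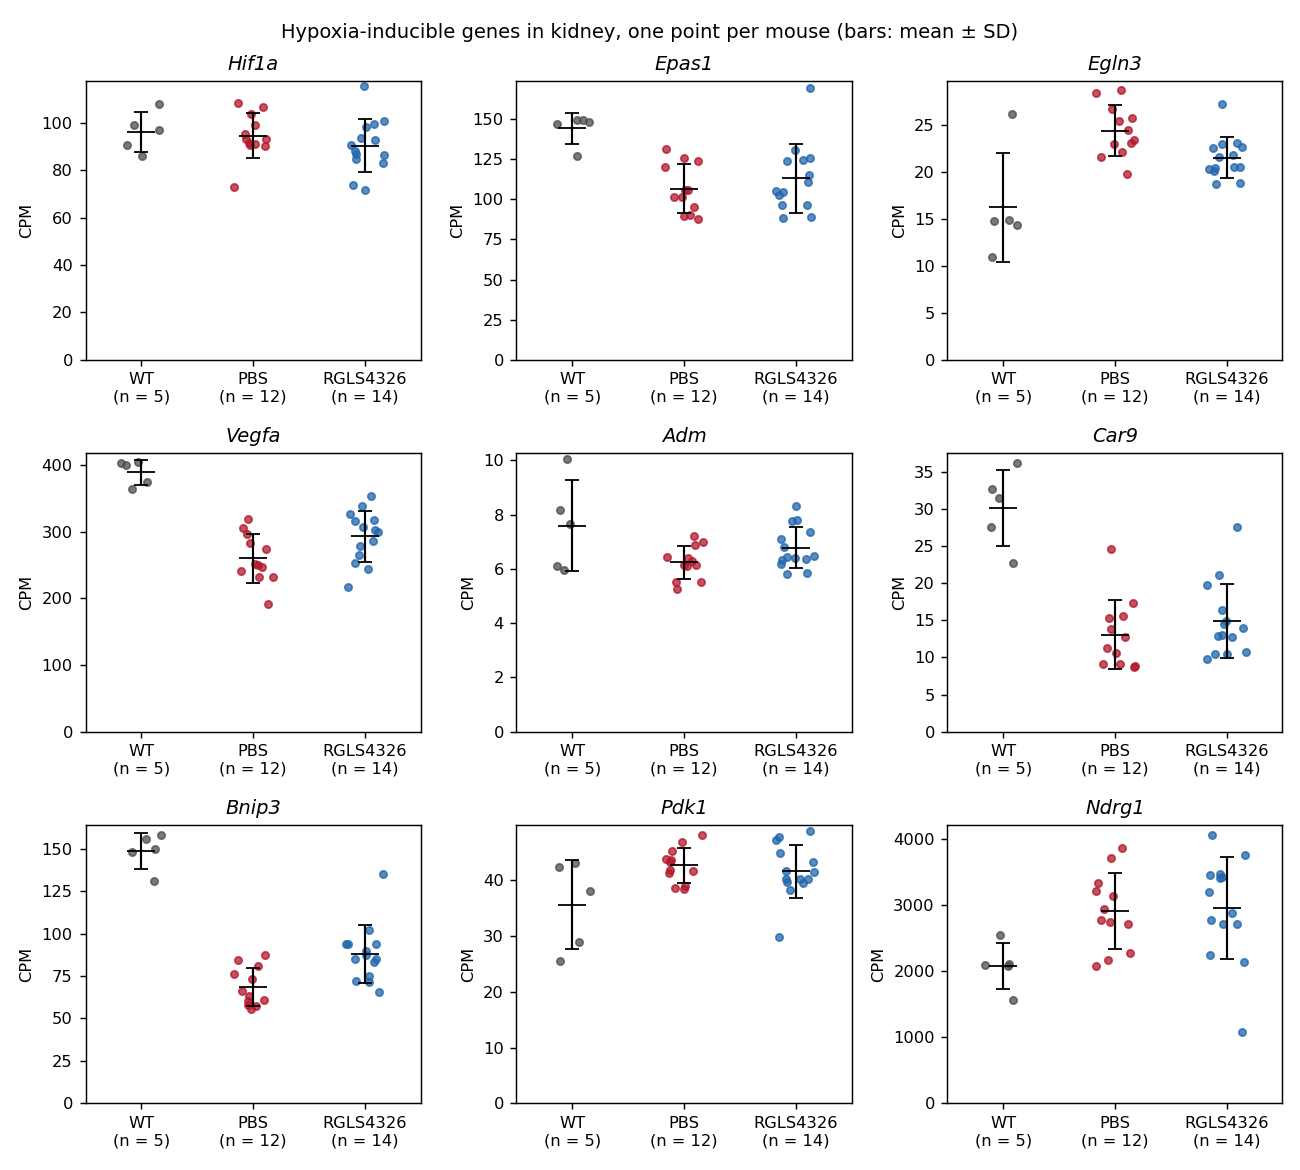
Level of each of 9 hypoxia-inducible genes in CPM (y axis, from 0) in wild-type, PBS and RGLS4326 kidneys (x axis), with 1 point per mouse and bars for the mean and SD. On these scaled values the 5 wild-type mice sit above all 12 PBS mice for Vegfa and Bnip3, and 1 RGLS4326 mouse reaches 134.9 CPM of Bnip3.

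**Figure D2:**
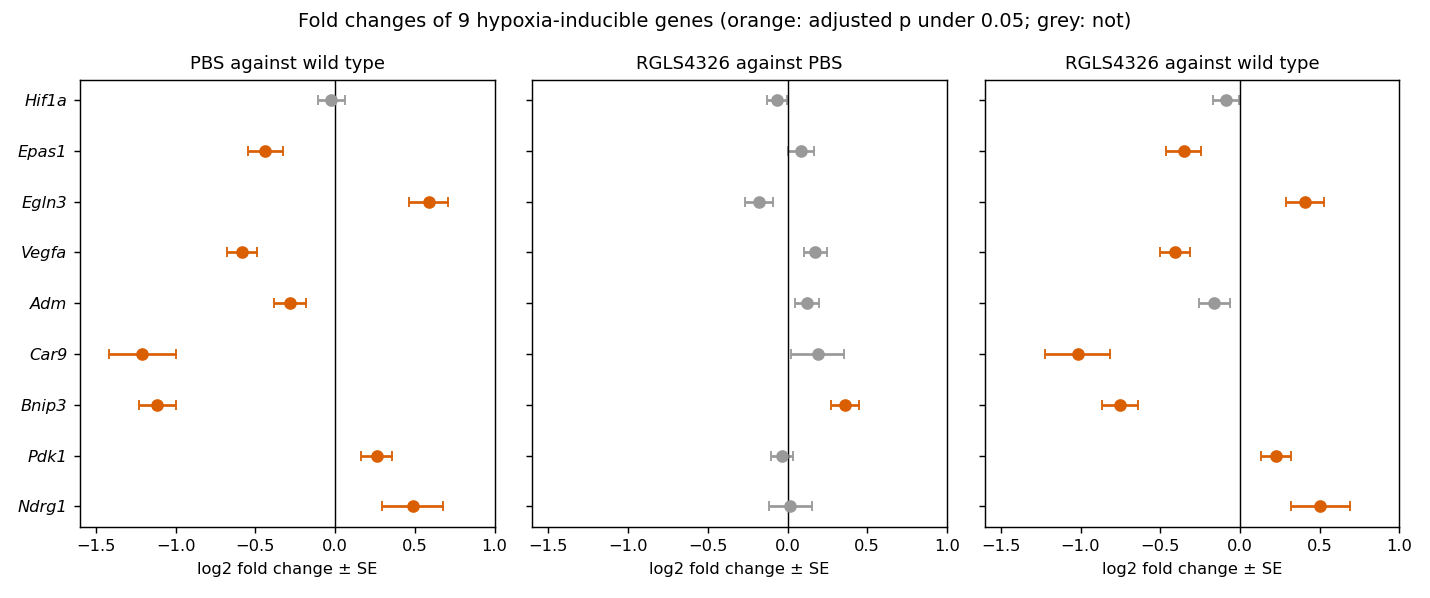
Log2 fold change with its SE (x axis) for the same 9 genes (y axis) in each comparison, in orange where the adjusted p was under 0.05 and in grey otherwise. In the middle panel, RGLS4326 against PBS, Bnip3 alone is orange, at 0.36.

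Per kilobase of annotated exon, Ndrg1 was by far the most abundant of the 10 in wild-type kidney, at 315 CPM per kb ± 52.5 (SD, n = 5). Vegfa followed at 90.9 ± 4.29, Bnip3 at 65.5 ± 4.64, Epas1 at 25.8 ± 1.76 and Hif1a at 16.3 ± 1.42. Car9 (13.1 ± 2.24) overlapped Hif1a, and Egln3 (6.10 ± 2.18), Adm (4.69 ± 1.03) and Pdk1 (4.57 ± 1.03) overlapped from each to the next, while Epo was at 0.0422 ± 0.0632. In PBS kidneys the first 5 places were held by the same genes in the same order, with Epas1 (19.1 ± 2.72) now overlapping Hif1a (16.1 ± 1.60). Car9 stood below Egln3 there, at 5.68 ± 2.04 against 9.16 ± 1.03, with overlapping ranges. In RGLS4326 kidneys the order was that of the PBS group, and every neighbouring pair from Vegfa to Hif1a overlapped.

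The alpha subunits came first in the pathway and differed from each other. Hif1a (chr12:73901375-73947530, plus strand) measured 86.2, 108, 90.7, 97.1 and 98.9 CPM in wild-type mice 1 to 5. It ranged from 72.8 to 108.5 CPM with a median of 93.2 in PBS, and from 71.8 to 115.5 with a median of 89.3 in RGLS4326. The groups lay on top of each other. The log2 fold change was -0.02 ± 0.083 (SE) for PBS against wild type (adjusted p = 0.805) and -0.07 ± 0.061 for RGLS4326 against PBS (adjusted p = 0.440). The 95% interval of the latter was -0.19 to 0.05. Without scaling beyond library size, PBS against wild type turned to 0.34 for Hif1a (adjusted p = 0.000365), where the median of all genes also moved, to 0.38. RGLS4326 against PBS turned to -0.18 without it (adjusted p = 0.0269), past the threshold, where the median of all genes moved to -0.12.

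Epas1 (chr17:86753700-86833410, plus strand), the subunit that drives erythropoietin in the kidney, measured 147, 127, 149.6, 149.6 and 148 CPM in wild-type mice 1 to 5. In PBS it ran from 87.9 through a median of 103.6 to 131 CPM. In RGLS4326 it ran from 88.1 through 107.8 to 169.6 CPM, the highest value being that of mouse 9. Of the 12 PBS mice, 11 were below the lowest wild-type mouse, and the ranges of PBS and RGLS4326 overlapped almost fully. Epas1 was lower in PBS than in wild type by a log2 fold change of -0.44 ± 0.11 (adjusted p = 0.000848). With RGLS4326 against PBS the change was 0.08 ± 0.084 (adjusted p = 0.472), and 0.03 without mouse 9. Within library series 1, 2 and 3 the decrease in PBS was -0.26, -0.49 and -0.55, and the adjusted p was 0.135 and 0.0864 in series 1 and 2. Without scaling it was -0.07 (adjusted p = 0.5).

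Egln3 (chr12:54178981-54203860, minus strand) encodes a prolyl hydroxylase that is itself a HIF target. Wild-type mice 1 to 5 had 14.9, 26.2, 14.4, 14.8 and 10.96 CPM. PBS mice had 19.8 to 28.8 CPM with a median of 23.9, and RGLS4326 mice 18.7 to 27.3 with a median of 21.1. Every cystic kidney was above the wild-type mice other than mouse 2, which lay inside the cystic range. The increase in PBS was 0.59 ± 0.12 in log2 (adjusted p = 7.55e-05), and 0.83 without wild-type mouse 2 (adjusted p = 8.33e-08). Within library series 1, which holds that mouse, it was 0.19 (adjusted p = 0.476). In series 2 it was 0.77 (adjusted p = 0.00323), and in series 3 it was 1.22. Without scaling the increase was 0.95. RGLS4326 against PBS gave -0.18 ± 0.085 (adjusted p = 0.124), or -0.29 without scaling (adjusted p = 0.0197).

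Among the secreted factors, Vegfa (chr17:46016993-46032369, minus strand), the main growth factor for endothelium, was lower in every cystic kidney than in any wild-type kidney on the scaled values, although not without scaling, where 2 PBS and 7 RGLS4326 mice were above the lowest wild-type mouse. The 5 wild-type mice had 403, 365, 404, 400.4 and 375 CPM. The PBS mice had 191 to 319.9 CPM with a median of 251, and the RGLS4326 mice 218 to 354 with a median of 301. Neither cystic group overlapped wild type on this scale, and the cystic groups overlapped each other. The log2 fold change for PBS against wild type was -0.58 ± 0.095 (adjusted p = 3.04e-06). Within library series 1, 2 and 3 it was -0.51, -0.65 and -0.52, past the threshold in series 1 and 2. Without scaling it was -0.22 (adjusted p = 0.00511). RGLS4326 against PBS was 0.17 ± 0.072 (adjusted p = 0.0839), with 3 of 14 treated mice above every PBS mouse. This passed the threshold when PBS mouse 1 (0.20, adjusted p = 0.0423) or RGLS4326 mouse 2 (0.20, adjusted p = 0.0307) was left out. It was 0.15 without RGLS4326 mouse 9 (adjusted p = 0.141), 0.0611 without scaling (adjusted p = 0.358), and 0.0126, 0.32 and 0.16 within series 1, 2 and 3 (adjusted p = 1, 0.237 and 0.425).

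Adm (chr7:110627661-110629820, plus strand), which encodes the vasodilator peptide adrenomedullin, was a low transcript. Wild-type mice 1 to 5 had 7.67, 10.04, 6.09, 8.17 and 5.96 CPM, PBS mice 5.27 to 7.21 (median 6.22) and RGLS4326 mice 5.81 to 8.31 (median 6.46). The groups overlapped in part, with 3 of 5 wild-type mice above every PBS mouse and mouse 2 above every RGLS4326 mouse. The difference between PBS and wild type, -0.28 ± 0.1 (adjusted p = 0.0124), rested on wild-type mouse 2, without which it was -0.16 (adjusted p = 0.153), and it turned to 0.09 without scaling and to 0.05 within library series 3. RGLS4326 against PBS was 0.12 ± 0.074 (adjusted p = 0.236).

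Epo (chr5:137483020-137533242, minus strand), the hormone of red cell production, was at the edge of detection. A count was seen in 2 of 5 wild-type mice, 5 of 12 PBS mice and 3 of 14 RGLS4326 mice, with 3, 6 and 4 counts in total and never more than 2 in a mouse. At these depths a count of 0 allows a level of up to 0.108 to 0.207 CPM (3 counts, counting error only), and all mice lay below the upper of these values. Epo did not pass the filter on low counts. On log2(CPM + 1) the difference between PBS and wild type was -0.0175 (exact two-sided permutation test, p = 0.546). Between RGLS4326 and PBS it was -0.0122 (two-sided permutation test with 100000 resamples, p = 0.533). No difference in Epo was detectable at this depth.

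Car9 (chr4:43506966-43513729, plus strand), a cell-surface carbonic anhydrase that is a classical hypoxia marker in tumours, was lower in cystic kidney. Wild-type mice 1 to 5 had 22.7, 27.6, 31.5, 32.7 and 36.2 CPM. PBS mice had 8.75 to 24.6 CPM with a median of 11.96, and RGLS4326 mice 9.73 to 27.6 with a median of 13.5. Mouse 1 of PBS and mouse 9 of RGLS4326 hold the upper ends, and 11 of 12 PBS mice were below every wild-type mouse. PBS against wild type was -1.21 ± 0.21 in log2 (adjusted p = 8.54e-06). Within library series 1, 2 and 3 it was -0.80, -1.26 and -1.64 (adjusted p = 0.0792 and 0.0149 in series 1 and 2). RGLS4326 against PBS was 0.19 ± 0.17 (adjusted p = 0.407), with a 95% interval of -0.13 to 0.51. The latter became 0.09 without RGLS4326 mouse 9 and 0.31 without PBS mouse 1, neither past the threshold.

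Bnip3 (chr7:138890836-138909519, minus strand), a mitochondrial protein that marks mitochondria for removal, was the 1 member that passed the test against PBS with RGLS4326, and it also passed in both other comparisons. Wild-type mice 1 to 5 had 158, 148, 149.8, 155.6 and 131 CPM. PBS mice had 55.3 to 87.2 CPM with a median of 64.8, and RGLS4326 mice had 65.4 to 134.9 with a median of 86.1. PBS and wild type did not overlap, and 7 of 14 treated mice were above every PBS mouse. The log2 fold change was -1.11 ± 0.11 for PBS against wild type (adjusted p = 5.2e-09), which is 0.462 times the wild-type level. Library series 1, 2 and 3 gave -1.15, -1.15 and -0.92, past the threshold in series 1 and 2. RGLS4326 against PBS was 0.36 ± 0.089 (adjusted p = 0.0143), or 1.28-fold. Without RGLS4326 mouse 9, which had 134.9 CPM, it was 0.30 (adjusted p = 0.0203). Within library series 1, 2 and 3 it was 0.10, 0.49 and 0.42 (adjusted p = 1, 0.237 and 0.179), and in those small fits edgeR called 0 genes of any kind in this comparison, against 280, 2981 and 3045 genes at an unadjusted p under 0.05. RGLS4326 kidneys were below wild type, at -0.75 ± 0.11 (adjusted p = 2.5e-06). Within the series the values were -1.05, -0.65 and -0.50 (adjusted p = 0.000417 and 0.0837 in series 1 and 2).

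Pdk1 (chr2:71873224-71903858, plus strand) encodes a pyruvate dehydrogenase kinase of the mitochondrion. It had 25.4 and 28.9 CPM in wild-type mice 1 and 2, and 43.1, 42.4 and 38.1 in mice 3 to 5. The first 2 mice are the wild-type mice of library series 1. PBS mice had 38.4 to 48.0 CPM (median 42.6) and RGLS4326 mice 29.9 to 48.8 (median 40.8), so that the cystic groups covered the wild-type mice of series 2. The increase of 0.26 ± 0.096 in PBS (adjusted p = 0.0162) was 0.60 within series 1, -0.02 within series 2 and 0.25 within series 3. It was no longer past the threshold without wild-type mouse 1 (0.16, adjusted p = 0.108) or mouse 2 (0.20, adjusted p = 0.0767), and it was 0.62 without scaling. RGLS4326 against PBS was -0.03 ± 0.07 (adjusted p = 0.739).

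Ndrg1 (chr15:66929318-66969640, minus strand), a cytoplasmic stress-response protein induced by hypoxia, had 1567, 2109, 2084, 2088 and 2544 CPM in wild-type mice 1 to 5. PBS mice had 2081 to 3865 CPM with a median of 2856. RGLS4326 mice had 1077 to 4065 with a median of 3035, the lowest being mouse 9. Of the 12 PBS mice, 9 were above every wild-type mouse. The log2 fold change was 0.49 ± 0.19 for PBS against wild type (adjusted p = 0.0226) and 0.40 without wild-type mouse 1 (adjusted p = 0.0774), with 0.77, 0.67 and -0.12 in the 3 library series, and 0.84 without scaling. RGLS4326 against PBS was 0.02 ± 0.14 (adjusted p = 0.934).

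Set against wild type directly, RGLS4326 kidneys differed in 7 of 9 genes, 3 higher and 4 lower, where 64.9% of all genes were called (32.5% higher and 32.4% lower). This comparison shares its mice with both others and adds no independent evidence. Car9 was at -1.02 ± 0.21 (adjusted p = 0.000105), Vegfa at -0.41 ± 0.093 (adjusted p = 0.000389) and Epas1 at -0.35 ± 0.11 (adjusted p = 0.006). Egln3 was at 0.41 ± 0.12 (adjusted p = 0.00349), or 0.65 without wild-type mouse 2 (adjusted p = 4.82e-06), and Ndrg1 at 0.50 ± 0.19 (adjusted p = 0.0195). Without scaling Epas1 was at -0.105 (adjusted p = 0.344) and no longer called, Vegfa was at -0.16 (adjusted p = 0.0385), and Egln3, Ndrg1 and Pdk1 were at 0.67, 0.76 and 0.48. Within library series 1, 2 and 3 none of these calls held throughout. Epas1 was at -0.34, -0.36 and -0.35 (adjusted p = 0.0589 and 0.248 in series 1 and 2). Vegfa was at -0.49, -0.33 and -0.37 (adjusted p = 0.0302 and 0.167 in series 1 and 2). Car9 was at -0.93, -1.07 and -1.16 (adjusted p = 0.0498 and 0.0826 in series 1 and 2). Egln3 was at 0.0698, 0.51 and 1.06 (adjusted p = 0.801 and 0.0386 in series 1 and 2). Ndrg1 was at 0.83, 0.58 and 0.0203 (adjusted p = 0.00925 and 0.293 in series 1 and 2). Pdk1 was at 0.64, -0.0568 and 0.16 (adjusted p = 0.00122 and 0.796 in series 1 and 2). Pdk1, at 0.23 ± 0.094 (adjusted p = 0.0364), lost the call without wild-type mouse 1 or 2 or RGLS4326 mouse 4, and with only these 2 groups fitted (0.24, adjusted p = 0.0563), and Ndrg1 lost it without wild-type mouse 1. Vegfa alone did not overlap between the groups, against 14.8% of all genes, and without scaling 0 of the 9 were free of overlap, against 17.6%. Adm, at -0.16 (adjusted p = 0.148), passed only when wild-type mouse 5 was left out.

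The 4 genes with a miR-17 seed match gave log2 fold changes of -0.07 (Hif1a), 0.08 (Epas1), 0.17 (Vegfa) and -0.18 (Egln3) for RGLS4326 against PBS, and none of them passed the edgeR test, although Vegfa (p = 0.022) and Egln3 (p = 0.0436) had an unadjusted p under 0.05, in opposite directions. Bnip3, the gene that passed, held no match. Egln3, which has the 8mer site, gave -0.12, -0.26 and -0.16 in the library series, none past the threshold. Without scaling, Hif1a (-0.18, adjusted p = 0.0269) and Egln3 (-0.29, adjusted p = 0.0197) passed, both lower. Egln3 also passed with only these 2 groups fitted (-0.18, adjusted p = 0.0498). The share of all genes called was 15.8% in the main test and 10.1% with only these groups. Without scaling it was 30.8%, with 11.8% of the calls higher and a median log2 fold change of -0.12.

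Between mice of the same group, 4 of 36 pairs of the 9 genes were correlated after adjustment over the pairs (log2(CPM + 1) centred on each group mean, 31 mice, permutation within groups). The lowest r of these 4 was reached by 7.38% of all pairs of the 15185 genes tested, and the highest by 1.08%. Correlations like the lowest are thus common in these kidneys, and those like the highest less so. All 4 were positive and joined Vegfa, Bnip3, Car9 and Epas1, which are 4 of the 5 genes that were lower in PBS than in wild type. Vegfa and Bnip3 had Pearson's r = 0.78 (permutation p = 1e-05, the smallest that the permutations can give, adjusted p = 0.00036) and Spearman's rho = 0.77 (permutation p = 3e-05). Their r was 0.74 without the 2 mice farthest from the median of Vegfa, and 0.89, 0.80 and 0.75 within the library series.

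Bnip3 and Car9 had r = 0.73 (permutation p = 2e-05, adjusted p = 0.00036) and rho = 0.73 (permutation p = 2e-05), with r = 0.69 without the 2 farthest mice and 0.81, 0.96 and 0.74 within series. Epas1 and Car9 had r = 0.64 (permutation p = 0.00029, adjusted p = 0.00348) and rho = 0.60 (permutation p = 0.00097). Vegfa and Car9 had r = 0.56 (permutation p = 0.00251, adjusted p = 0.0226) and rho = 0.57 (permutation p = 0.00226). The last 2 pairs rested in part on RGLS4326 mouse 9, without which r was 0.53 and 0.50 (permutation adjusted p = 0.066 and 0.0972), and r without the 2 farthest mice was 0.49 and 0.62. Within series 1, 2 and 3, Epas1 and Car9 had r = 0.60, 0.79 and 0.43, and Vegfa and Car9 had r = 0.58, 0.70 and 0.51. Hif1a, Egln3, Adm, Ndrg1 and Pdk1 were in no pair that passed. Ndrg1 and Pdk1 had r = 0.44 (permutation p = 0.0172, adjusted p = 0.0885), which was 0.11 without the 2 farthest mice.

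**Figure D3:**
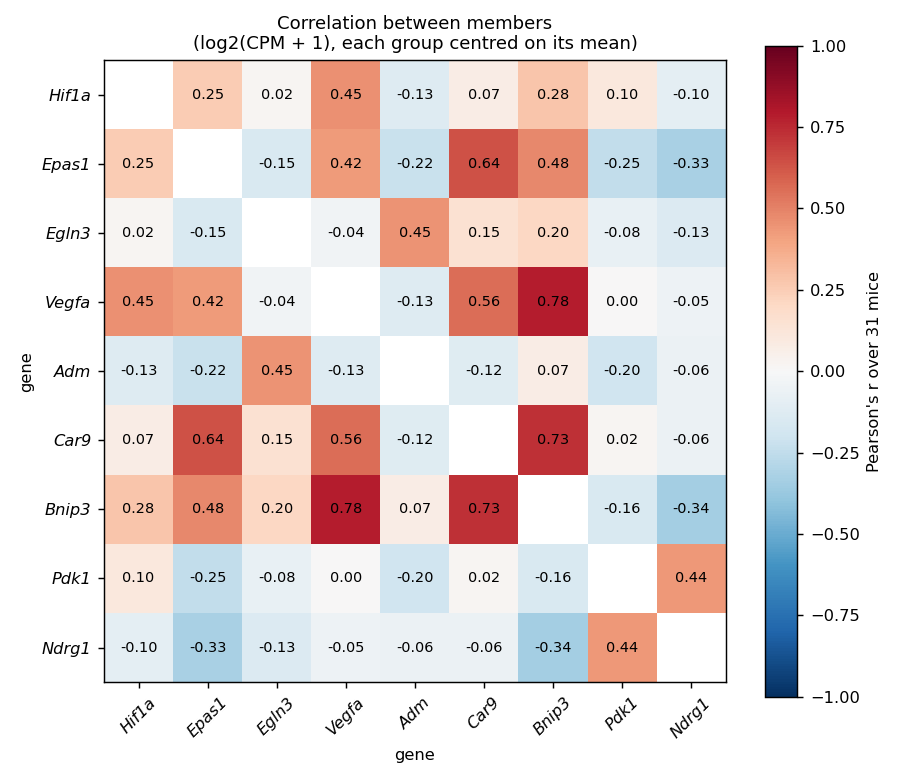
Pearson's r (colour, from -1 to 1) between each pair of 9 genes (both axes) over 31 mice, on log2(CPM + 1) centred on each group's mean. The deepest red cells join Vegfa, Bnip3, Car9 and Epas1, up to 0.78, and the pairs Hif1a and Vegfa, Egln3 and Adm, and Ndrg1 and Pdk1 lie between 0.44 and 0.45.

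The gene whose variation between mice was most like that of each member, among 11522 genes averaging 5 CPM or more, is a description over 31 mice that share group means and libraries. For Bnip3 it was Arl6ip1 (r = 0.94), an endoplasmic reticulum membrane protein. For Epas1 it was Tek (r = 0.93), the endothelial angiopoietin receptor. For Vegfa it was BC024386 (r = 0.91). For Car9 it was Ass1 (r = 0.88), an arginine synthesis enzyme of the proximal tubule, which averaged 8.46 CPM here, near the cut of 5. For Hif1a it was Tsc1 (r = 0.87), an inhibitor of mTORC1 signalling. The best matches were weaker for Ndrg1 (Ppm1h, r = 0.85), Egln3 (Gmnn, r = 0.76), Pdk1 (Ttc22, r = 0.72) and Adm (Dnph1, r = 0.65).

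Other genes of the pathway were grouped into 4 lists of 61 genes, all of which passed the filter on low counts. In PBS against wild type 45 of 61 were called, 23 higher and 22 lower, or 73.8% beside 74.3% of all genes (40 higher and 9 lower without scaling). In RGLS4326 against PBS 8 of 61 were called, 4 higher and 4 lower, or 13.1% beside 15.8% (2 higher and 16 lower without scaling, where the median of all genes was -0.12). The second count moved between 2 and 12 when single mice were left out and was 0 by edgeR within each library series (2, 11 and 14 at an unadjusted p under 0.05).

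**Figure D4:**
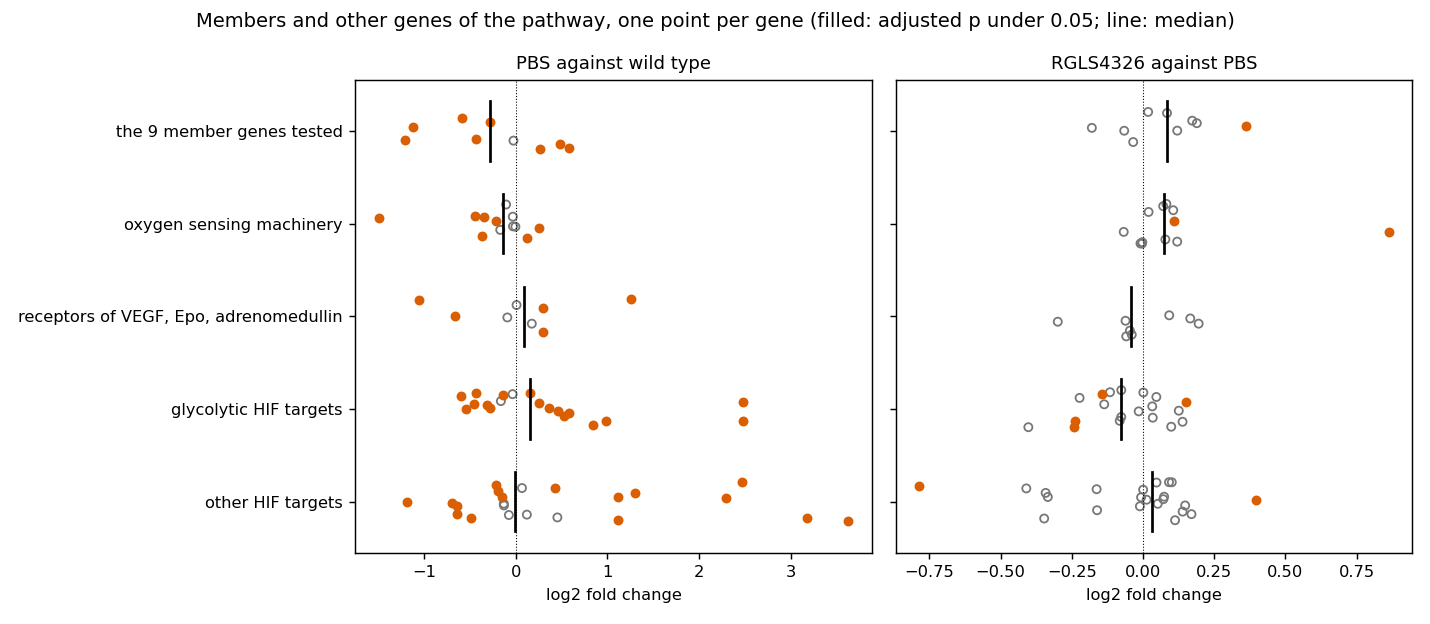
Log2 fold change (x axis, with a different range in each panel) of the 9 tested members and of 61 other genes in 4 pathway lists (y axis), 1 point per gene, filled where the adjusted p was under 0.05, with a line at each median. The glycolytic list spans both directions in PBS against wild type, with a median of 0.15, and most points are open in RGLS4326 against PBS.

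In PBS against wild type 7 of the 12 genes of the oxygen sensing machinery were called, 2 higher and 5 lower. The same test called 74.3% of all genes, 37.7% higher and 36.6% lower. The median log2 fold change was -0.14 beside 0.01 for all genes. Without scaling 8 were called higher and 1 lower, where 80.0% of the calls over all genes were higher. The list was not tested as a set. Egln1, the principal prolyl hydroxylase, fell from 97.0 CPM ± 3.80 (SD, n = 5) to 76.5 ± 5.42 (n = 12), a log2 fold change of -0.34 ± 0.051 (adjusted p = 6.96e-07). Egln2, another hydroxylase, changed by -0.21 ± 0.05 (adjusted p = 0.000418), and Siah2, a ubiquitin ligase for prolyl hydroxylases, by -0.44 ± 0.08 (adjusted p = 1.47e-05), or -0.0766 without scaling (adjusted p = 0.304). Egln3 thus rose where both of its paralogues fell, although without scaling these gave 0.0191 (Egln1) and 0.16 (Egln2). Vhl, the von Hippel-Lindau gene itself, was higher by 0.13 ± 0.05 (adjusted p = 0.0211), or 0.50 without scaling.

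With RGLS4326, 2 of the 12 genes were called, both higher, beside 15.8% of all genes (9.15% higher). Without scaling 1 was called higher and 2 lower, beside 30.8% of all genes. Egln1 was at 0.11 ± 0.038 (adjusted p = 0.0498), at -0.0031 without scaling, and at 0.0937 without RGLS4326 mouse 9 (adjusted p = 0.0869). The other, Hif3a, was singled out after its values were seen: it encodes an alpha subunit that can oppose the others, and had a mean of 1.60 CPM in wild type, 0.567 in PBS and 1.04 in RGLS4326. Hif3a gave -1.49 ± 0.28 for PBS against wild type (adjusted p = 2.5e-05) and 0.86 ± 0.22 for RGLS4326 against PBS (adjusted p = 0.018), or 0.75 without mouse 9 (adjusted p = 0.0329). Hif1an, which blocks the transactivation domain of the alpha subunits, gave 0.07 ± 0.027 with RGLS4326 (adjusted p = 0.0632).

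Receptors of the secreted factors moved in both directions. In PBS against wild type 5 of 8 were called, 3 higher and 2 lower, beside 74.3% of all genes. In RGLS4326 against PBS 0 of 8 passed the edgeR test, beside 15.8% of all genes (1, Epor, at an unadjusted p under 0.05, and 0 by DESeq2). Kdr, the main VEGF receptor of endothelium, fell from 53.4 CPM ± 14.1 to 25.8 ± 7.73 in PBS (log2 fold change -1.05 ± 0.24, adjusted p = 0.000226). Flt1, the decoy-like VEGF receptor, changed by -0.67 ± 0.23 (adjusted p = 0.0103). Without scaling Flt1 was at -0.31 and not called (adjusted p = 0.198), Kdr was at -0.69 (adjusted p = 0.00538), and the receptors called were 5 higher and 1 lower. Beside these, 2 of 7 endothelial markers were called in that comparison, 1 higher and 1 lower, and their summed level was 315 to 417 CPM in wild type and 233 to 453 CPM in PBS. Epor, the erythropoietin receptor, rose from 6.45 CPM ± 4.25 to 15.4 ± 1.85 (1.26 ± 0.21, adjusted p = 3.93e-06). Ramp3, a partner of the adrenomedullin receptor, rose by 0.30 ± 0.091 (adjusted p = 0.00361), or 0.67 without scaling.

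Glycolytic targets moved in both directions, with or without scaling (13 called higher and 2 lower without it). In PBS against wild type 17 of 19 were called, 10 higher and 7 lower, with a median of 0.15. Beside these, 74.3% of all genes were called, 37.7% higher and 36.6% lower, and 80.0% of calls were higher without scaling. The glucose transporter Slc2a1 rose from 52.1 CPM ± 1.72 to 93.3 ± 9.13 (0.84 ± 0.078, adjusted p = 1.46e-09). The lactate exporter Slc16a3 rose from 0.776 ± 0.345 to 4.34 ± 1.30 (2.48 ± 0.32, adjusted p = 8.26e-08), and the pyruvate kinase Pkm by 0.52 ± 0.067 (adjusted p = 8.81e-08). The 7 lower genes, read off after the test, were the core enzymes Gpi1, Tpi1, Gapdh, Pgk1, Pgam1 and Ldha and the regulator Pfkfb4. Of these, Pgk1 changed by -0.60 (-0.24 without scaling) and Gpi1 by -0.14. Without scaling Gpi1 turned to 0.23 and was called higher (adjusted p = 0.000361), and Ldha and Pfkfb4 turned to 0.0811 and 0.0557. Tpi1 and Gapdh, at -0.0722 and -0.0878, were then not called (adjusted p = 0.126 and 0.117), and Pgk1 and Pgam1 stayed lower. Several of these enzymes have processed copies in the genome, with which uniquely mapped counts may be shared out.

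With RGLS4326, 4 of the 19 glycolytic genes were called, 1 higher and 3 lower (0 higher and 8 lower without scaling, by edgeR). The shares of all genes called were 15.8%, and 30.8% without scaling, where 11.8% of calls were higher. Slc2a1 was at -0.24 ± 0.055 (adjusted p = 0.0106), Pkm at -0.14 ± 0.048 (adjusted p = 0.0437) and Pfkfb3, which raises the main activator of glycolysis, at -0.24 ± 0.083 (adjusted p = 0.0457). Pgam1, the higher gene, was at 0.15 (adjusted p = 0.0478), or 0.0387 without scaling (adjusted p = 0.419). Without RGLS4326 mouse 9 Slc2a1 was still called (-0.22, adjusted p = 0.0166), and Pkm, Pfkfb3 and Pgam1 were not (-0.14, -0.23 and 0.12, with adjusted p = 0.0684, 0.0687 and 0.0819).

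Of 22 other HIF targets, 16 were called in PBS against wild type, 8 in each direction, beside 74.3% of all genes. Without scaling 14 were higher and 5 lower. The median of the list was -0.002. Bnip3l, the paralogue of Bnip3 with a like role in mitophagy, fell from 101 CPM ± 5.45 to 72.0 ± 4.27 (-0.49 ± 0.052, adjusted p = 7.68e-09), the direction of Bnip3, and was at -0.125 without scaling (adjusted p = 0.0134). Loxl2, a matrix cross-linking enzyme, rose by 2.30 ± 0.24 (adjusted p = 4.88e-09), beside summed fibroblast markers of 253 to 347 CPM in wild type and 613 to 1197 CPM in PBS. Stc2, a secreted stanniocalcin, rose from 2.10 CPM ± 0.608 to 26.0 ± 9.59 (3.63 ± 0.42, adjusted p = 2.15e-08).

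With RGLS4326, 2 of these 22 were called, 1 in each direction, beside 15.8% of all genes. Without scaling 1 was higher and 5 lower, beside 30.8%. Stc2 was at -0.79 ± 0.23 (adjusted p = 0.0278). Tfrc, the transferrin receptor for iron uptake, which was at -1.18 ± 0.16 in PBS against wild type (adjusted p = 1.55e-07), was at 0.40 ± 0.12 (adjusted p = 0.033). Without RGLS4326 mouse 9 Stc2 was at -0.69 (adjusted p = 0.0246) and Tfrc at 0.33 and not called (adjusted p = 0.0589).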

How the data were processed

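Kidney mRNA was sequenced from 31 mice (12 Pcy/CD1 PBS, 14 Pcy/CD1 RGLS4326, 5 CD1), grouped by the sample labels. The authors trimmed paired reads with Trim Galore, aligned them with STAR to GRCm38 and deposited raw counts of uniquely mapped reads per gene from HTSeq 0.6.1. The strand setting and gene model release are not given in the sources used here. Rows that name no gene were left out (no feature 8.39 to 10.1%, not unique 17.8 to 21.2%, ambiguous 0.305 to 0.411%). Library totals of 14892524 to 27459962 counts set the counting precision.

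Counts were tested in edgeR 4.0.16 (filterByExpr, TMM, quasi-likelihood F test, 1 coefficient per group, all mice, Benjamini-Hochberg over 15185 genes, called at adjusted p under 0.05). SE is the absolute log2 fold change over the square root of F, an approximation, and 95% intervals are normal intervals from it. On simulated counts for RGLS4326 against PBS (15098 genes), 98 of 100 genes changed 2-fold and all 100 changed 4-fold were recovered, with 9 false calls. Smaller changes, such as the 1.28-fold change of Bnip3, were not simulated, so this gives no recovery rate for them. Wild-type mice 3 and 4 were the closest libraries, with a chi-square of 3.92 per gene, above the 1 that counting noise gives, beside 24.3 for the next wild-type pair and 7.12 and 9.55 for the closest PBS and RGLS4326 pairs. They were counted as separate mice, as labelled. This value cannot tell separate mice from repeat libraries of 1 mouse. Without either of them, 8 members were called in PBS against wild type and 7 in RGLS4326 against wild type, as with both. Alternatives included DESeq2 1.42.0, other filters and scalings, library series, a replicate block and leaving out each mouse. Epo was tested by permutation, and pairs of members by permutation within groups (100000 resamples).

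The members and the pathway lists were chosen with earlier results of these data known. Named genes were the 10 members, per pathway list the 3 with the smallest p in PBS against wild type and the 3 in RGLS4326 against PBS (mean of at least 1 CPM), and the gene most like each member. Seed and promoter matches came from GENCODE models and RefSeq tables. Protein sequences were not used here.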

Additional observations from a re-analysis of the deposited data

Results flagged for a closer look

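Both flagged values came from wild-type mouse 2, which stood apart from the other 4 wild-type mice by Dixon's criterion for 5 samples (a gap of over 0.71 of the range). Epas1 was 126.8 CPM there against 146.8 to 149.6 CPM in the others, a gap of 0.877 of the range. Egln3 was 26.2 CPM there against 10.96 to 14.9 CPM, a gap of 0.744. Chance sets apart about 1 in 20 groups, and 9 genes were looked at in this group. The groups of 12 and 14 mice were not tested in this way. Without mouse 2 the log2 fold change of PBS against wild type was -0.48 for Epas1 and 0.83 for Egln3, both past the threshold.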

How the results depend on the processing

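The number of members called in PBS against wild type was 8 and ranged from 6 (without wild-type mouse 1 or 2) to 8 when single mice were left out. It was 4 with an absolute log2 fold change over 0.5 required too (42.4% of all genes passed), and 5, 4 and 4 within library series 1, 2 and 3 (51.9%, 45.5% and 38.1% of all genes). For RGLS4326 against PBS it was 1, and from 1 to 2 when single mice were left out. It was 2 with only these groups fitted (10.1% of all genes), 3 without scaling (30.8% of all genes), and by edgeR 0 with the fold threshold, within each series (0, 3 and 1 at an unadjusted p under 0.05) and with the replicate block (3). For RGLS4326 against wild type it was 7 (5 to 8 with single mice left out), 3 with the fold threshold (31.5% of all genes), and 1 and 2 within series 2 and 3 (2.58% and 18.1%). The pathway list genes called numbered 45 in PBS against wild type (43 to 48 with single mice left out), 23 with the fold threshold, and 29 and 19 within series 1 and 3. In RGLS4326 against PBS they numbered 8 (2 to 12), 4 with no filter, 5 with only these groups, 18 without scaling, 2 with the fold threshold, and by edgeR 0 within each series and with the block (17 at an unadjusted p under 0.05). In this comparison the count was 5 or fewer without PBS mouse 2, 3, 5, 9, 10 or 11, RGLS4326 mouse 3, 6, 7, 8, 9, 10 or 13, or wild-type mouse 2, 3 or 4. In RGLS4326 against wild type they numbered 38 (35 to 40), 19 with the fold threshold, and 4 and 13 within series 2 and 3. The number of correlated pairs was 4, and 2 without RGLS4326 mouse 9.

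Directions turned in PBS against wild type for Hif1a (0.0158 with a mean of at least 1 CPM, 0.34 without scaling, 0.0023 with only these groups, 0.0277 within series 3, -0.0573 to 0.0261 with single mice left out), Adm (0.0852 without scaling, 0.0519 within series 3), Ndrg1 (-0.12 within series 3) and Pdk1 (-0.0163 within series 2). In RGLS4326 against PBS they turned for Hif1a (0.0944, series 2), Epas1 (-0.0309 without scaling, -0.0852 in series 1), Adm (-0.0495, series 2), Ndrg1 (-0.0813 without scaling, -0.0878 in series 2, -0.0185 with the block, -0.0236 to 0.0874 with single mice left out), Pdk1 (0.0397, series 1) and Car9 (-0.13, series 1). In RGLS4326 against wild type they turned for Hif1a (0.16 without scaling, 0.0656 in series 2), Adm (0.10 without scaling, 0.26 in series 3) and Pdk1 (-0.0568, series 2). The causes were not tested, but the fits within series hold fewer mice, and leaving out scaling moved the median of all genes to 0.38, -0.12 and 0.26 in the comparisons in that order, with 80.0%, 11.8% and 80.3% of calls higher, against 50.7%, 57.9% and 50.1%.

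Replicate numbers did not pair the mice: same-numbered mice correlated by 0.113, -0.104 and -0.017 on average, over 5, 12 and 5 pairs. With the replicate block, members called were 6, 0 and 7, beside 64%, 0.075% and 63.4% of all genes, and all genes called in RGLS4326 against PBS were 11, against 2402. The block ended the calls of Bnip3 in RGLS4326 against PBS (0.32, adjusted p = 0.11) and of Pdk1 (0.23, adjusted p = 0.134) and Adm (-0.27, adjusted p = 0.195) in PBS against wild type. Epo, with 0 to 2 counts in a mouse, passed in no comparison, either with a pseudocount of 0.1 or by edgeR with no filter.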
